A study of Mus musculus with 8 samples.

Results

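EpCAM- cells of MCa-P1362, a mammary tumour cell line of the mouse, were compared between monoculture and coculture, with 2 libraries in each group. The genes described are those that reached 1 FPKM (a level scaled to transcript length and to library depth) in both libraries of either group, 10868 of the 24421 genes in the files. The line was raised from a mammary tumour that arose spontaneously in a female Balb/c mouse, and its cells were sorted for EpCAM, a cell adhesion molecule found on epithelia. The whole series holds 8 libraries of total RNA, 2 for each combination of sort fraction and culture. All cells had been grown in high-glucose DMEM with 10% fetal bovine serum. No genetic change and no drug treatment is named for any group. The protocol describes some sorted cells as flash frozen at once and others as grown on and passaged 1 time first, and it does not link these to the words coculture and monoculture. The difference between the groups is therefore named here only by those labels. The material is a single cell line from 1 tumour, and nothing in the labels says that paired libraries of a group are separate cultures. The spread behind each p-value is that between these libraries alone and may be technical.

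Mesenchymal cells of a carcinoma lay down collagen and other matrix, contract, and release chemokines and growth factors that act on epithelial cells, leukocytes and vessels. Interferon-stimulated genes form another shared programme: type I interferon binds its receptor, a complex of transcription factors that includes STAT2 and IRF9 assembles, and it binds a short element in the promoters of antiviral genes. BMP and TGF-beta ligands are related secreted factors that signal through SMAD proteins, and both are regulators of fibroblast and stem cell state.

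The sum of FPKM ran from 387489 to 414612 over the 8 libraries, with 10634 to 11119 genes at 1 FPKM or more in each. Read depth is unknown from FPKM, and low values gave relative depths of 0.914 to 1.09 for the EpCAM- libraries, with monoculture EpCAM- replicate 1 set to 1. Log2 values of the 2 libraries of a group correlated at r = 0.998 across genes in monoculture and in coculture EpCAM- cells. The median absolute difference between the 2 libraries was 0.0505 log2 in monoculture and 0.0431 log2 in coculture.

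The EpCAM- label was checked on marker genes. Epcam itself stood at 0.341 and 0.359 FPKM in coculture EpCAM- and at 0.225 and 0.26 FPKM in monoculture EpCAM-, against 129 to 202 FPKM in the 4 EpCAM+ libraries. All 28 epithelial markers together summed to 47.2 and 46.5 FPKM in coculture EpCAM- and to 30.8 and 31.7 FPKM in monoculture EpCAM-, against 11268 to 12622 FPKM in EpCAM+. The ratio of EpCAM- to EpCAM+ levels over 24 epithelial markers had a median of 0.199% and 0.266% in the coculture libraries and of 0.175% and 0.224% in the monoculture libraries. Mesenchymal genes were abundant in both cultures: Vim, the mesenchymal intermediate filament, was at 3264 and 3262 FPKM in coculture and 2664 and 2591 FPKM in monoculture. Vim was also abundant in the EpCAM+ libraries, at 907 to 1097 FPKM. The collagen gene Col1a1 was at 3558 to 4223 FPKM in EpCAM- and at 5.94 to 72.5 FPKM in EpCAM+ libraries. Fn1, fibronectin, went the other way in monoculture, at 961 and 1048 FPKM in EpCAM- and 1279 and 1289 FPKM in EpCAM+. Leukocyte markers summed to 6.6 and 6.9 FPKM in coculture and 8.72 and 9.05 FPKM in monoculture, with 13 or 14 of 20 markers at 0. Ptprc, the gene of the pan-leukocyte antigen CD45, was listed at 0 in all 4 EpCAM- libraries. The endothelial gene Pecam1 was listed at 0 in both coculture libraries and at 0.00866 and 0.0237 FPKM in monoculture. The 12 endothelial markers summed to 4.89 and 5.14 FPKM in coculture and 6.58 and 6.72 FPKM in monoculture. The 8 pericyte markers summed to 36 and 35.2 FPKM in coculture and to 45.9 and 47 FPKM in monoculture. These sums were small beside those of the matrix genes in the same libraries, and their part in the results below was not tested.

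In EpCAM- cells, 307 genes were at least 2-fold higher in monoculture and 236 at least 2-fold lower, at an adjusted p under 0.05. Such genes are called here. The test was limma on log2(FPKM + 1), and p-values were adjusted by Benjamini-Hochberg over 12012 tested genes. All of the called genes lay within the 10868 described, and they made up 4.52% of the genes tested, 2.56% higher and 1.96% lower. A gene that reached 1 FPKM in only 1 of the cultures had to differ to some degree, so these were counted apart. Of 10263 genes at 1 FPKM in both cultures, 207 were called higher and 140 lower. Of 331 at 1 FPKM in monoculture only, 100 were called higher, and of 274 in coculture only, 96 were called lower. Without the 2-fold minimum, 32.4% of tested genes were higher and 30.3% lower, because the spread between libraries was small. Most of these differences were small too: 82.6% of the described genes changed by less than 0.5 log2 either way. Their median change was 0.01, and the 5th to 95th percentile ran from -0.635 to 0.742. The 2 groups did not overlap in 8994 of the described genes, and in 80% of all genes tested. A change of 3 log2 or more was found for 16 genes upward and 16 downward.

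**Figure D1:**
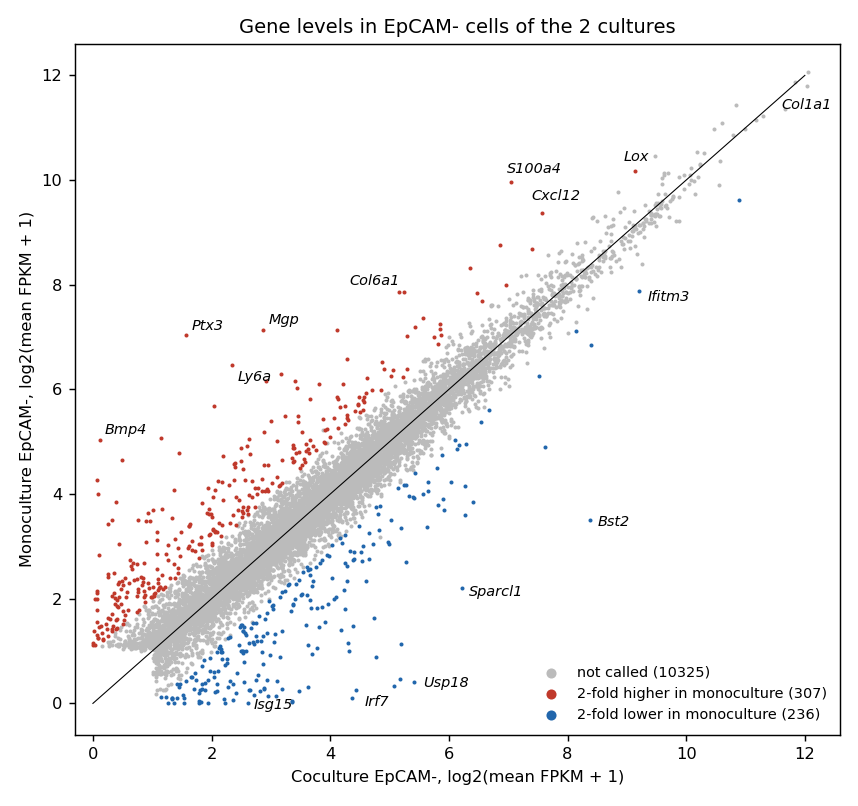
Mean level of each of the 10868 genes in coculture EpCAM- (x axis) and monoculture EpCAM- cells (y axis), both as log2(mean FPKM + 1), with the line of equal level. Red points are the 307 genes called higher in monoculture, blue points the 236 called lower and grey points the others, and most genes lie near the line, with Ptx3 and Bmp4 far above it and Bst2 and Usp18 far below.

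The genes furthest above coculture were led by secreted and matrix proteins. Ptx3 (chromosome 3, 66219910 to 66225805), which encodes pentraxin 3, a soluble pattern recognition protein of innate immunity, stood at 1.94 and 2.02 FPKM in coculture and 133 and 127 FPKM in monoculture. Both monoculture libraries lay far above both coculture libraries, a log2 fold change of 5.46 (SE 0.0584, limma adjusted p = 9.1e-10). Bmp4 (chromosome 14, 46383520 to 46390669), a BMP ligand, was low in coculture at 0.126 and 0.0368 FPKM and reached 31.7 and 31.8 FPKM in monoculture (4.92, adjusted p = 1.17e-09). Mgp, matrix Gla protein, an inhibitor of calcification that also binds BMPs, rose from 5.96 and 6.64 FPKM to 142 and 138 FPKM (4.27). The other leading genes of this kind were Prelp, a leucine-rich proteoglycan of connective tissue (4.21), Ptn, the growth factor pleiotrophin (4.17), Pcsk6, a proprotein convertase (3.93), Igfbp2, a binding protein of insulin-like growth factors (3.92), Rspo2, an R-spondin that enhances Wnt signalling (3.45), and C1qtnf3, a secreted protein related to C1q (3.24). Ly6a, which encodes the stem cell surface antigen Sca-1, stood at 4.27 and 3.9 FPKM in coculture and at 89.3 and 85 FPKM in monoculture (4.12, adjusted p = 1.66e-09). Adm, the vasodilator peptide adrenomedullin (3.12), the water channel Aqp1 (3.19) and the potassium channel subunit Kcnf1 (3.18) completed the top of the ranking, together with Plac9a (3.63) and Plac9b (3.33). Plac9a and Plac9b are close copies whose reads may be shared, as may those of Ly6a and its family, so their separate values are uncertain.

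The genes furthest below coculture were mostly interferon-stimulated. Usp18 (chromosome 6, 121245906 to 121270917), the protease that removes ISG15 from proteins and restrains interferon receptor signalling, stood at 41.1 and 42.1 FPKM in coculture and 0.334 and 0.335 FPKM in monoculture. That is a log2 fold change of -5.0 (SE 0.0339, limma adjusted p = 1.56e-10), with no overlap between the groups. Bst2 (chromosome 8, 71534255 to 71537456), which encodes tetherin, a membrane protein that holds back budding virus, fell from 329.6 and 338 FPKM to 10.5 and 10.1 FPKM (-4.89, adjusted p = 4.21e-11). Irf7, the factor that amplifies type I interferon production, fell from 32.7 and 32.6 FPKM to 0.22 and 0.286 FPKM (-4.75). Genes of the same kind next in order were Ifi44 (-4.71), the oligoadenylate synthetase family members Oasl2 (-4.27) and Oas1a (-4.18), Ifi27l2a (-4.05), Rtp4 (-3.89), Ifit1 (-3.32) and Slfn2 (-3.24). Among the 15 furthest below were also genes not usually counted with interferon. Sparcl1, a matrix protein related to SPARC, stood at 73 and 74.3 FPKM in coculture and 3.61 and 3.56 FPKM in monoculture (-4.03). The others were the collagenase Mmp13 (-3.33), the lysosomal protease Ctsc (-3.31), the cornified envelope gene Sprr1a (-3.31) and the R-spondin receptor Lgr6 (-3.16).

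**Figure D2:**
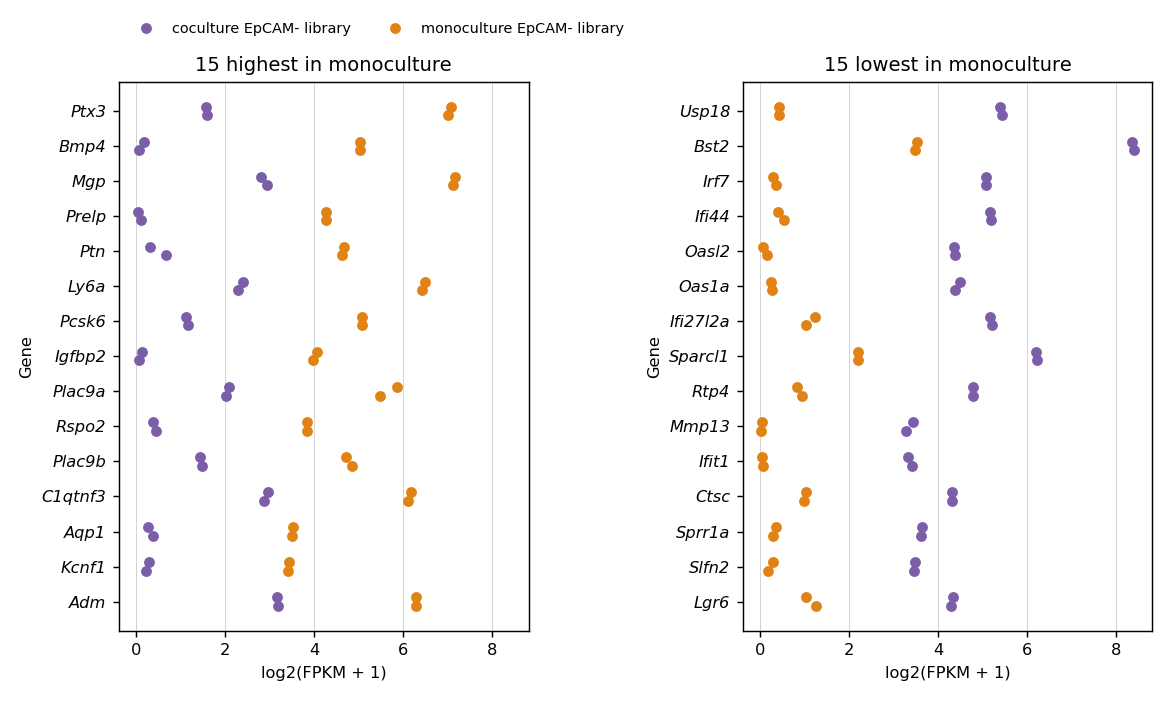
Level of each gene in each of the 4 EpCAM- libraries, as log2(FPKM + 1), for the 15 genes with the highest (left) and the 15 with the lowest (right) log2 fold change in monoculture. Each point is a library, coculture in purple and monoculture in orange. Genes were taken only where the groups did not overlap, so the separation of the colours comes from that choice, and what the plot shows is the level of each gene, such as Ptx3 at 133 and 127 FPKM and Usp18 at 0.334 and 0.335 FPKM in monoculture.

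The interferon response list had the most called genes of the 38 lists. Of its 32 genes 28 were described, and 26 of these were called lower and 0 higher, where 1.96% of all tested genes were called lower. The list's median was -2.07, against 0.00 over all tested genes. Of the 28, 18 reached 1 FPKM only in coculture, and of the 10 that reached it in both cultures, 8 were called lower. Summed over the list, levels were 876.28 and 876.47 FPKM in coculture and 81.1 and 79.9 FPKM in monoculture. The fold values depend on the pseudocount, since many monoculture levels were near 0: with 0.1 in place of 1, the median was -3.78.

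The genes cover several steps of the pathway. The signal transducers Stat2, from 18.4 and 17.5 FPKM to 5.37 and 5.41 FPKM (-1.57), and Irf9, from 24.1 and 22.6 FPKM to 4.34 and 3.83 FPKM (-2.26), both fell. The cytosolic RNA sensors Ifih1 (-2.07), which encodes MDA5, and Ddx58 (-2.07), which encodes RIG-I, fell likewise. Isg15, the ubiquitin-like modifier that Usp18 removes, stood at 6.24 and 6.54 FPKM in coculture and 0.238 and 0.186 FPKM in monoculture (-2.61, adjusted p = 1.17e-08). Lgals3bp, a secreted glycoprotein, was among the abundant members and went from 198 and 194 FPKM to 29.6 and 28.4 FPKM (-2.72). Mx2 was at 2.75 and 2.95 FPKM in coculture and at 0 and 0.0109 FPKM in monoculture. Both members that were not called stood at similar levels in the 2 cultures: Ifit2 was at 5.5 and 5.37 FPKM in coculture and 6.59 and 6.86 FPKM in monoculture (0.26, adjusted p = 0.00241), and Herc6 had a log2 fold change of -0.21 (adjusted p = 0.0502). Members of the Oas and Ifit families resemble each other in sequence, so reads may be shared between them.

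**Figure D3:**
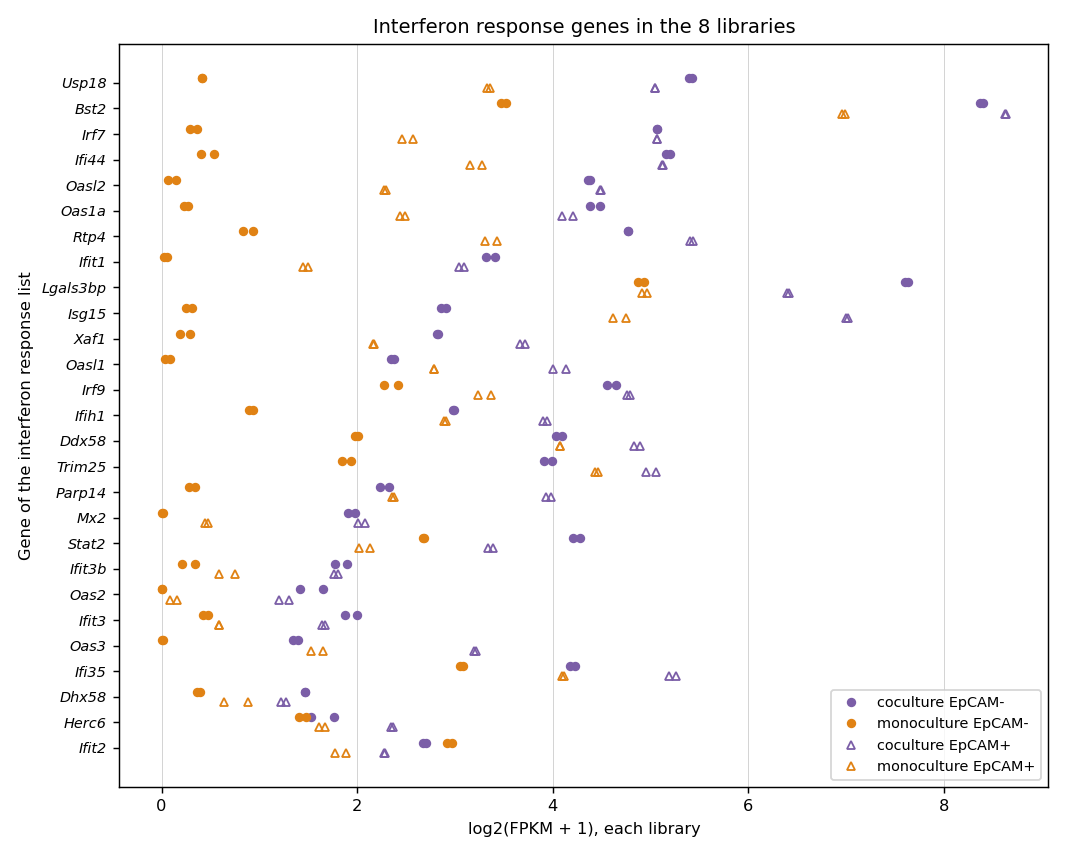
Level of 27 of the 28 described interferon response genes in all 8 libraries, as log2(FPKM + 1), ordered by the change in EpCAM- cells. Filled circles are EpCAM- and open triangles EpCAM+ libraries, coculture in purple and monoculture in orange, and in EpCAM- cells all genes shown but Ifit2 lie lower in both monoculture libraries.

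The promoters of these genes were searched on both strands for the core of the interferon-stimulated response element, which is GAAA, 2 bases of any kind and GAAA again (TTTC, 2 bases and TTTC on the other strand). Overlapping matches were counted. The window was the 250 bases before the start of each gene in RefSeq, build GRCm38.p6. The core was found in 8 of 19 promoters with sequence among the called members of the interferon list (42.1%). Over the whole list, called or not, it was found in 9 of 23 (39.1%), a similar share. It was found in 30 of 170 promoters of all genes called lower (17.6%), which include those 19. It was also found in 10 of 222 of those called higher (4.5%), and in 590 of 17224 over all genes of the files (3.43%). A match is a description of the letters in this window only. The promoters of the 4 called members with the largest changes that held the core are shown 5′ to 3′ on the gene's own strand, with matches in capitals. Bst2 (chr8:71537473-71537722, minus strand) had 2 overlapping matches that begin 130 and 124 bases before the start. Oas1a (chr5:120907526-120907775, minus strand) had 2 matches at 20 and 14 bases, and Ifit1 (chr19:34640639-34640888, plus strand) had 2 separate matches at 104 and 85 bases. Isg15 (chr4:156200819-156201068, minus strand) had 3 overlapping matches at 78, 72 and 66 bases before the start.
Bst2: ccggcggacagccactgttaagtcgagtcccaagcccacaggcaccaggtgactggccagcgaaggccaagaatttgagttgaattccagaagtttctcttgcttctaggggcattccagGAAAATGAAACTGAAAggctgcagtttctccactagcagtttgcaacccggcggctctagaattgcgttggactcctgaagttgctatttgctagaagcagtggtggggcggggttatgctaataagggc
Oas1a: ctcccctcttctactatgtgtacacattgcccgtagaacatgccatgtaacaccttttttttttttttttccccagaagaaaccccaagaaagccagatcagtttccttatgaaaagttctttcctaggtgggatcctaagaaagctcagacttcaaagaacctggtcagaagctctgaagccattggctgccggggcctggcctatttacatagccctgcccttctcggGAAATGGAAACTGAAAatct
Ifit1: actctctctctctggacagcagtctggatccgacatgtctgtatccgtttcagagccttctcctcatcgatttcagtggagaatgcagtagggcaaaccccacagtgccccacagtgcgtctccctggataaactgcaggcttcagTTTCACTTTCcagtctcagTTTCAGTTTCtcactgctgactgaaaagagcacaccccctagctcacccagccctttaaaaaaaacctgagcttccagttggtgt
Isg15: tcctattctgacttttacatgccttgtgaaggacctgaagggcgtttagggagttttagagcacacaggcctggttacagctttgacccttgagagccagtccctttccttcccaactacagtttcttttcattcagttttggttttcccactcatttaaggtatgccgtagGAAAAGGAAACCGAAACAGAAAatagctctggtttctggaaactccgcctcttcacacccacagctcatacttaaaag

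Of 21 genes that interferon gamma typically induces, 9 were described, 7 of them called lower and 0 higher (median -1.42, or -3.39 with a pseudocount of 0.1). Of these 9, 6 reached 1 FPKM only in coculture and so had to differ to some degree, and of the 3 that reached it in both cultures 1 was called lower. Irgm1, an immunity-related GTPase, was at 66.3 and 63.5 FPKM in coculture and 17.8 and 17.6 FPKM in monoculture (-1.82). Irgm2 (-2.69), Igtp (-2.60) and the guanylate-binding protein Gbp3 (-2.12) fell too, and reads may be shared within these families. In MHC class I presentation, 5 of 16 described genes were called lower and 0 higher (median -0.49). Of the 14 at 1 FPKM in both cultures, 4 were called lower. The heavy chain H2-K1 stood at 30.4 and 32.7 FPKM in coculture and 10.7 and 9.98 FPKM in monoculture (-1.52), and H2-D1 fell by 2.22 log2, with reads that may be shared between these near-identical chains. The immunoproteasome subunit Psmb8 (-1.55), the peptide transporter Tap1 (-1.15) and its partner Tapbp (-1.03) were also called lower. B2m, the light chain shared by all class I molecules, was far more abundant and fell by less than 2-fold, from 610.1 and 611 FPKM to 341 and 333 FPKM (-0.85, adjusted p = 3.44e-08). Of the 13 described feedback targets of NF-kB, 3 were called lower: the ubiquitin-editing enzyme Tnfaip3 (-1.58), Nfkbiz (-1.50) and Bcl3 (-1.48).

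Chemokine and cytokine genes differed in the other direction. Of 30 listed, 13 were described, and 7 of these were called higher and 0 lower, where 2.56% of all tested genes were called higher. The list's median was 1.09, but it was 0.10 when only genes at 5 FPKM were kept, so the median rests on genes of low level. Of the 8 members at 1 FPKM in both cultures, 4 were called higher. Cxcl12, a chemokine that retains stem cells and leukocytes through CXCR4, rose from 189 and 191 FPKM to 672 and 652 FPKM (1.80, SE 0.0342, limma adjusted p = 1.1e-08). Csf1, the growth factor of macrophages, rose from 169 and 168 FPKM to 410.1 and 412 FPKM (1.28, adjusted p = 7.32e-09). These 2 carried most of the list's summed level, which was 586 and 601 FPKM in coculture and 1290 and 1263 FPKM in monoculture. The chemokines Ccl9 (1.88) and Cx3cl1 (1.67) and the interleukin 1 receptor antagonist Il1rn (1.71) rose from lower levels. The inflammatory cytokine Il6 went the other way by less than 2-fold, from 7.97 and 8.74 FPKM to 4.17 and 3.7 FPKM (-0.92, adjusted p = 1.22e-05). The monocyte chemokine Ccl2 had a log2 fold change of -0.20 that did not pass the test (adjusted p = 0.0771). Complement genes were split: the classical pathway protease genes C1ra (1.28) and C1s1 (1.22) and the complement inhibitor Cd59a (1.23) were called higher. C2 (-1.58) and the C1 inhibitor Serping1 (-1.57) were called lower. Of the 11 described complement genes, 9 reached 1 FPKM in both cultures, 3 of them called higher and 1 lower.

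**Figure D4:**
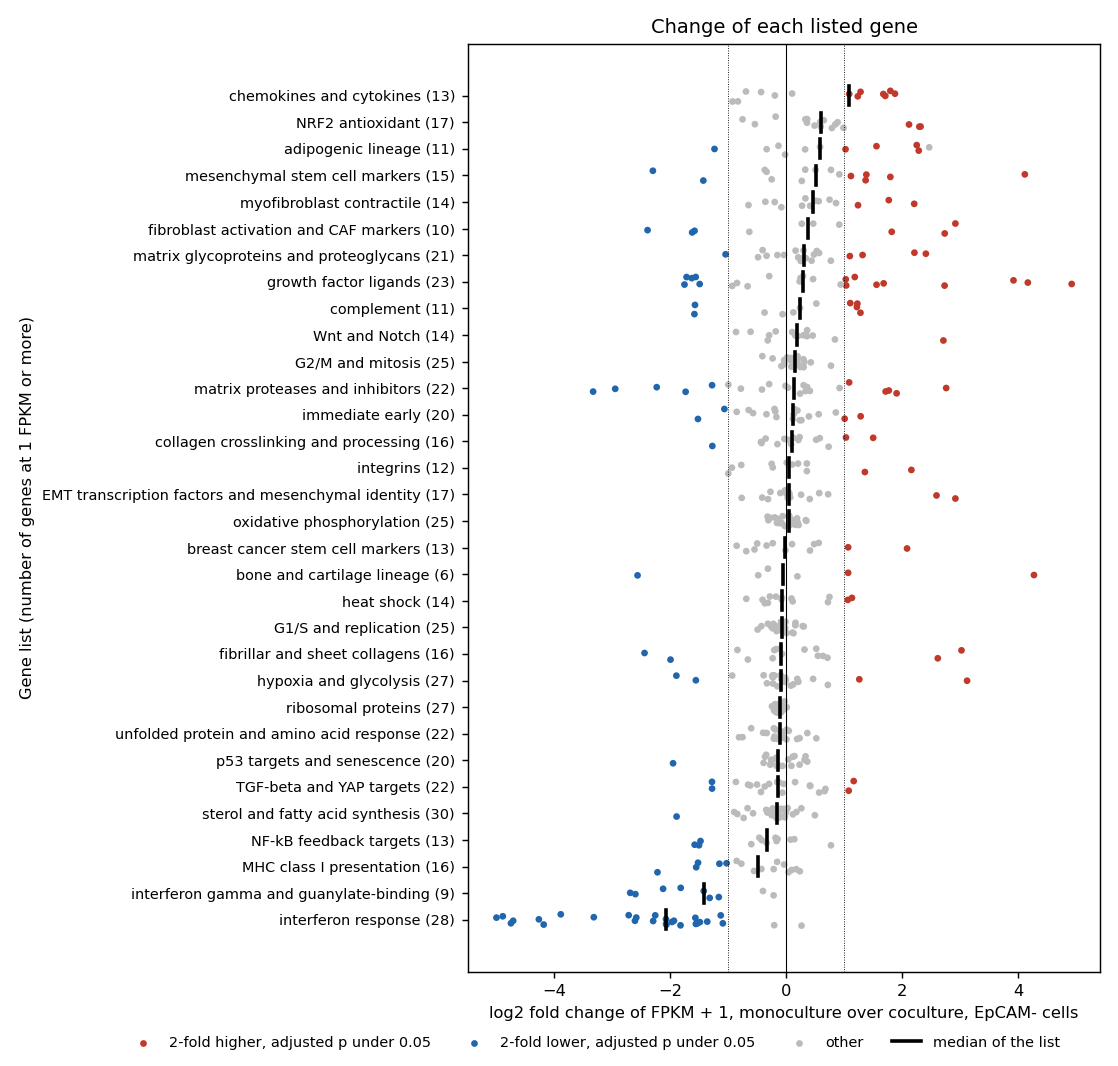
Log2 fold change of FPKM + 1 in EpCAM- cells, monoculture over coculture, for each described gene of each list (number of genes in brackets), lists ordered by their median (black bar). Red and blue points passed the 2-fold minimum at an adjusted p under 0.05 (dotted lines at 1 and -1), and the interferon response list lies lowest with a median of -2.07 while the chemokine and cytokine list lies highest with 1.09.

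Growth factor genes moved both ways, with 9 of 23 described called higher and 5 lower (median 0.29). Of the 15 at 1 FPKM in both cultures, 3 were called higher and 4 lower. The fibroblast growth factor Fgf10, which acts on epithelium, rose from 0.631 and 0.776 FPKM to 9.98 and 10.6 FPKM (2.73, adjusted p = 2.06e-08), in addition to Bmp4, Ptn and Igfbp2. Igf1 rose from low levels, 0.0951 and 0.164 FPKM, to 1.27 and 1.36 FPKM (1.03). Vegfc, the main growth factor of lymphatic vessels, fell from 7.77 and 7.09 FPKM to 1.44 and 1.55 FPKM (-1.75, adjusted p = 5.07e-08). Among Wnt and Notch genes, 1 of 14 described passed: the R-spondin Rspo3 went from 1.39 and 1.75 FPKM to 16 and 15.6 FPKM (2.71).

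Genes of the BMP and TGF-beta branches were among those called, and links between them were not tested. With Bmp4, the BMP target genes Id1, at 58.2 and 56.8 FPKM in coculture and 131 and 129 FPKM in monoculture (1.16), and Id2 (1.08) were called higher. Both encode inhibitors of basic helix-loop-helix factors. Tgfb1, the ligand TGF-beta 1, fell from 69.3 and 69.7 FPKM to 27.9 and 28.2 FPKM (-1.28, adjusted p = 3.06e-08). Across the 22 described TGF-beta and YAP targets, which include Id1, Id2 and Tgfb1, 2 were called higher and 2 lower, and the median was -0.14. Inhba, the activin A subunit, was chosen after its values were seen: it fell from 336 and 339 FPKM to 112 and 116 FPKM (-1.56). Egfr, the receptor of epidermal growth factor, was at 18.3 and 17.9 FPKM in coculture and 8.26 and 8.45 FPKM in monoculture (-1.03). Erbb2, the gene of HER2, changed little (0.16, adjusted p = 0.0061). The hormone receptor genes were low in all 4 libraries: Esr1 was at 0.271 and 0.317 FPKM in coculture and 0.947 and 0.943 FPKM in monoculture, and Pgr was at 0.0154 FPKM or less, so neither was among the genes tested in these cells.

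The listed collagens kept a similar total level, while single chains changed. Other matrix lists shifted in total. Glycoproteins and proteoglycans went from 6761 and 6737 FPKM in coculture to 8129 and 8247 FPKM in monoculture. Crosslinking and processing genes went from 3024 and 3023 FPKM to 3812 and 3782 FPKM. Proteases and inhibitors went from 3651 and 3631 FPKM to 3037 and 3020 FPKM. The 17 listed collagens summed to 9939 and 9901 FPKM in coculture and 9568 and 9638 FPKM in monoculture, and of 16 described, 2 were called higher and 2 lower (median -0.09). The chains of type I collagen, the main fibrillar collagen, were near the same level: Col1a1 stood at 4223 and 4163 FPKM in coculture and 3573 and 3558 FPKM in monoculture (-0.23), and Col1a2 differed by -0.07 (adjusted p = 0.06). Col3a1, the type III chain, fell by less than 2-fold, from 938 and 943 FPKM to 595 and 593 FPKM (-0.66). Type VI collagen, a beaded network around cells, had the largest rises of the list. Col6a1 went from 36.3 and 37.2 FPKM to 229 and 231 FPKM (2.61), and Col6a2 from 16.7 and 15.9 FPKM to 138 and 141 FPKM (3.02), each with adjusted p = 5.36e-10. The minor fibrillar chains Col5a3, at 59.2 and 57.9 FPKM in coculture and 14.2 and 13.7 FPKM in monoculture (-1.99), and Col11a1 (-2.44) fell.

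Of 21 described matrix glycoproteins and proteoglycans, 4 were called higher and 1 lower (median 0.30). The 4 were the small leucine-rich protein Aspn (2.41), Spon2 (2.21), the elastic fibre protein Fbln5 (1.32) and Ecm1 (1.10), and the lower one was Fbln1 (-1.04). Of the 18 at 1 FPKM in both cultures, 3 were called higher and 1 lower. Fn1, fibronectin, was abundant in both cultures and differed by -0.15. Among crosslinking enzymes, 2 of 16 were called higher and 1 lower (median 0.10), and the lysyl oxidases differed in direction: Lox rose from 564 and 558 FPKM to 1137 and 1157 FPKM (1.03), while Loxl2 fell from 183 and 184 FPKM to 75.6 and 74.8 FPKM (-1.27). The procollagen protease Adamts2 rose by 1.50 log2.

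Matrix proteases and their inhibitors split by kind. Of the 22 described, 5 were called higher and 5 lower (median 0.14). Among the 5 lower were the secreted metalloproteinases Mmp13, Mmp9, Mmp10 and Mmp3. Mmp9, gelatinase B, was at 7.24 and 7.8 FPKM in coculture and at 0.0996 and 0.106 FPKM in monoculture (-2.95, adjusted p = 1.1e-08). Mmp10, a stromelysin, was at 3.64 and 3.76 FPKM in coculture and listed at 0 in both monoculture libraries. All 4 metalloproteinases reached 1 FPKM only in coculture. The metalloproteinase inhibitors Timp2, from 116 and 114 FPKM to 431 and 434 FPKM (1.90), and Timp3, from 9.27 and 9.85 FPKM to 69 and 71.8 FPKM (2.76), rose. Mmp3 is named beyond the rule, to complete the 4.

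Contractile genes were mostly higher in monoculture, by modest amounts. Of 14 described, 10 were higher and 4 lower at an adjusted p under 0.05, and with the 2-fold minimum 3 were called higher and 0 lower. Of all tested genes, 32.4% were higher and 30.3% lower with no minimum, and 2.56% and 1.96% were called at 2-fold. The median was 0.46. Of the 13 at 1 FPKM in both cultures, 2 were called higher and 0 lower. Acta2, smooth muscle actin and the usual myofibroblast marker, went from 1425 and 1413 FPKM to 2043 and 2004 FPKM, a rise of less than 2-fold (0.51, adjusted p = 3e-06). Tagln rose by 0.86 log2. The 3 called were Actg2, enteric smooth muscle actin, from 4.42 and 4.04 FPKM to 24.1 and 22.2 FPKM (2.21), myosin light chain kinase Mylk (1.77) and Lmod1 (1.24). Of 12 described integrins, 2 were called higher, the collagen-binding chains Itga11 (2.16) and Itga1 (1.36), and 0 lower. With no minimum change, 5 integrins were higher and 5 lower, the lowest at -0.999, and their median was 0.06. The 17 listed integrins summed to 1165 and 1178 FPKM in coculture and to 1020 FPKM in each monoculture library.

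Several mesenchymal identity factors were close in level in the 2 cultures, while surface markers differed. Prrx1 stood at 71.5 and 71.1 FPKM in coculture and 70 and 70.7 FPKM in monoculture (-0.02, adjusted p = 0.697). Twist1 (0.06) and Snai2 (0.03) did not pass the test either, while Zeb1 fell by 0.77 log2. Of 17 described genes of this list, 2 were called higher and 0 lower. S100a4, a calcium-binding protein used as a fibroblast and metastasis marker, rose from 130.3 and 131 FPKM to 1011 and 979 FPKM (2.92, adjusted p = 1.15e-07), and the homeobox factor Prrx2 rose by 2.59 log2.

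Of 15 described mesenchymal stem cell markers, 5 were called higher and 2 lower (median 0.51). Of the 14 at 1 FPKM in both cultures, 5 were called higher and 1 lower. The surface glycoprotein Thy1 rose from 87.1 and 87.7 FPKM to 232 and 227 FPKM (1.38), and Ly6a and Cxcl12 are on this list as well. The adhesion molecule Alcam (-2.30) and the intermediate filament Nes (-1.43) fell. Eng, which encodes CD105, rose by less than 2-fold (0.33, adjusted p = 0.000227). Nt5e, which encodes CD73, was under 0.4 FPKM in all 4 libraries. Among 10 described fibroblast activation markers, 3 were called higher and 3 lower. Of the 7 at 1 FPKM in both cultures, 1 was called higher and 2 lower. Cd34, a marker of resting stromal progenitors, went from 0.0461 and 0.0937 FPKM to 6.54 and 5.71 FPKM (2.73), and Fap, fibroblast activation protein, from 4.95 and 5.56 FPKM to 0.22 and 0.164 FPKM (-2.39). Those 2 markers differed in direction, and each reached 1 FPKM in only 1 of the cultures. The adhesion molecule Ncam1 fell as well (-1.62). Ly6c1 was called higher (1.82, adjusted p = 0.00511), but its monoculture libraries were far apart at 8.54 and 2.29 FPKM. Its change was 1.05 without monoculture EpCAM- replicate 1 and 2.59 without monoculture EpCAM- replicate 2.

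Of 13 described breast cancer stem cell markers, 2 were called higher and 0 lower (median -0.01). These were Sox9 (1.07) and the aldehyde dehydrogenase Aldh1a1, which went from 0.0311 and 0.0698 FPKM to 3.67 and 3.24 FPKM (2.08). Aldh1a1 reached 1 FPKM in monoculture only, and of the 12 markers that reached it in both cultures 1 was called higher. The other marker enzyme, Aldh1a3, fell from 2.33 and 2.14 FPKM to 1.06 and 1.38 FPKM (-0.55, adjusted p = 0.000243). Cd44 (-0.34) and Cd24a (-0.69) fell by less than 2-fold.

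Genes of the adipocyte and bone lineages moved singly. Of 11 described adipogenic genes, 4 were called higher and 1 lower (median 0.58). Of the 9 at 1 FPKM in both cultures, 3 were called higher and 1 lower. Cebpa, an adipogenic transcription factor, rose from 8.61 and 8.34 FPKM to 43.6 and 44.6 FPKM (2.25), and lipoprotein lipase, Lpl, from 13 and 13.1 FPKM to 65.9 and 69.3 FPKM (2.29). The lipid droplet gene Plin2 fell (-1.24) and Plin4 rose (1.56). Spp1, which encodes osteopontin, fell from 83.9 and 83.4 FPKM to 13 and 13.6 FPKM (-2.56, adjusted p = 5.36e-10).

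In 5 lists of basic cell functions no gene changed by 2-fold. Of all tested genes 4.52% were called, a share under which lists of this size would hold few called genes. The same share stands beside the counts of the other lists of this paragraph. In limma, 0 of 25 G1/S, 0 of 25 G2/M, 0 of 25 oxidative phosphorylation, 0 of 27 ribosomal protein and 0 of 22 unfolded protein response genes were called at 2-fold. At an unadjusted p under 0.05, with no minimum change, 17, 19, 19, 20 and 16 of them passed, where 66% of all tested genes did. At an adjusted p under 0.05, with no minimum change, 5 G1/S genes were higher and 12 lower, 16 G2/M genes were higher and 3 lower, 9 oxidative phosphorylation genes were higher and 10 lower, 0 ribosomal protein genes were higher and 19 lower, and 4 unfolded protein response genes were higher and 10 lower. By that rule 32.4% of all tested genes were higher and 30.3% lower. The medians of these lists were -0.08, 0.14, 0.05, -0.10 and -0.11. Mki67, the proliferation marker, had the lowest change of the G2/M list, against the direction of most of its genes: it fell from 38.4 and 38.9 FPKM to 27.2 and 30.5 FPKM (-0.41, adjusted p = 0.000159), and the cell cycle inhibitor Cdkn1a by 0.17 log2. Of 20 p53 targets, 1 was called, the pro-apoptotic gene Pmaip1 (-1.95). NRF2 targets, the antioxidant and detoxification genes, had a median of 0.60, and 3 of 17 were called higher and 0 lower: the quinone reductase Nqo1, from 5.09 and 4.98 FPKM to 29.9 and 28.3 FPKM (2.32), and the glutathione transferases Gsta4 (2.30) and Gstm1 (2.12). Of 27 hypoxia and glycolysis genes, 2 were called higher and 2 lower (median -0.10). Hexokinase 2, Hk2, fell from 46.7 and 46.1 FPKM to 15 and 15.2 FPKM (-1.56), as did the lactate exporter Slc16a3 (-1.89), while Adm and Ndrg1 (1.26) rose. Of 20 immediate early genes, Klf2 (1.28) and Nr4a1 (1.01) were called higher and Atf3 (-1.52) and Fosb (-1.07) lower. Of the 19 at 1 FPKM in both cultures, 2 were called higher and 1 lower. Of 14 heat shock genes, Hspb1 (1.13) and Hspa1b (1.06) were called higher.

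Some epithelial and leukocyte markers also differed between the EpCAM- groups. Krt18, a keratin of simple epithelium, was at 8.57 and 8.99 FPKM in coculture and 3.62 and 3.92 FPKM in monoculture (-1.04), against 2203 to 2569.6 FPKM in EpCAM+ libraries. With the share of EpCAM+ levels subtracted from each library, the change was -1.92. That share was larger than the Krt18 level of both monoculture libraries and left none there. The value therefore reflects only what was left in coculture, and whether the change grew was not tested. Lyz2, lysozyme of myeloid cells, was at 0.156 and 0.427 FPKM in coculture and 3.1 and 3.02 FPKM in monoculture (1.66). Subtracting the EpCAM+ share gave 308 genes higher and 240 lower, close to the 307 and 236 without it. In bulk RNA, fewer cells of a type and less RNA per cell cannot be told apart.

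The same comparison in EpCAM+ cells, which comes from 4 other libraries, called 32 genes higher (0.266% of those tested) and 201 lower (1.67%). Of the 307 genes higher in EpCAM- monoculture, 4 were called higher in EpCAM+ (1.30% of the 307 and 12.5% of the 32), and 11 were called lower there. Of the 236 genes lower in EpCAM- monoculture, 50 were called lower in EpCAM+ (21.2% of the 236 and 24.9% of the 201), and 5 were called higher there. The difference between the 2 changes was tested directly as an interaction, in which a positive value is a higher change in EpCAM-. It called 8.09% of tested genes, 680 higher (5.66%) and 292 lower (2.43%), a split of 70% to higher that became 57.2% with quantile normalization, where 495 and 370 genes were called. Of the 307 genes, 289 were called higher in the interaction, and of the 236, 157 were called lower. The interaction contains the EpCAM- change by which these genes were chosen, so high shares were largely set in advance. Both EpCAM+ group means were under 1 FPKM for 141 of the 307 and 50 of the 236, where the interaction is nearly the EpCAM- change itself. Levels of 12 mesenchymal markers in the EpCAM+ libraries were at a median of 1.87% and 1.74% of EpCAM- levels in coculture and 0.302% and 0.321% in monoculture. Single markers ran from 1.55% to 73.7% in coculture and from 0.0814% to 128% in monoculture, and whether this RNA came from EpCAM- cells was not tested. With the median share of EpCAM- levels subtracted, an alternative added after the values were seen, the interaction called 615 genes higher and 318 lower.

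Interferon response genes were lower in monoculture in both fractions. In EpCAM+ cells 23 of the 28 were called lower, and their median was -1.50, beside -2.07 in EpCAM- cells. The interaction called 14 of the 28 lower and 0 higher. Usp18 stood at 32 FPKM in both coculture EpCAM+ libraries and at 9.02 and 9.29 FPKM in monoculture (-1.70), where EpCAM- monoculture was at 0.334 and 0.335 FPKM. The 2 fractions were thus nearer each other in coculture than in monoculture, with an interaction of -3.30 (adjusted p = 5.26e-09). Isg15 differed from this: its EpCAM+ levels were 127 and 129 FPKM in coculture and 23.5 and 25.9 FPKM in monoculture (-2.33), and its interaction was -0.28 (adjusted p = 0.00993). The 1 FPKM added before the logarithm compresses the change of Isg15 in EpCAM- cells, where its level was low.

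Type VI collagen changed in opposite directions. Col6a1 stood at 229.5 and 229 FPKM in coculture EpCAM+ and 86.1 and 89.6 FPKM in monoculture EpCAM+ (-1.37), while it rose in EpCAM- cells, with an interaction of 3.99 (adjusted p = 7.76e-10). Col6a2 did the same, at 225 and 226 FPKM and 89 and 90.8 FPKM in EpCAM+ (-1.32). Inhba rose by 0.78 log2 in EpCAM+, where it fell by 1.56 log2 in EpCAM-, an interaction of -2.34 (adjusted p = 3.13e-09). Lox was at 10.8 FPKM in each coculture EpCAM+ library and at 0.874 and 0.951 FPKM in monoculture EpCAM+ (-2.63). Unlike the type VI chains, Lox was far lower in EpCAM+ than in EpCAM- cells, which held 564 and 558 FPKM in coculture. Whether the Lox RNA of the EpCAM+ libraries came from EpCAM- cells was not tested.

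**Figure D5:**
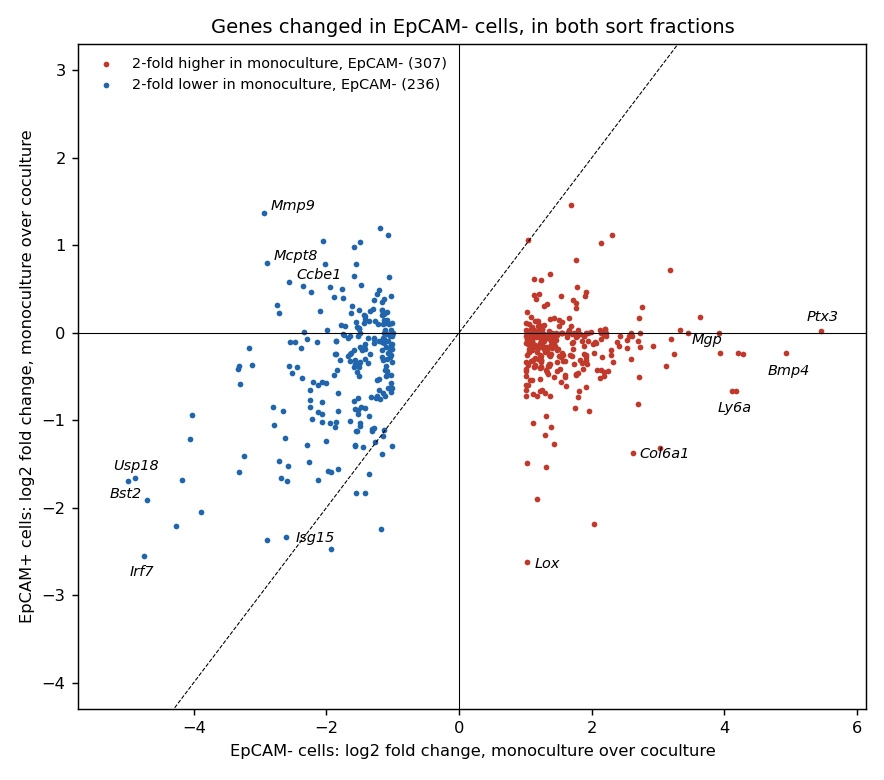
Log2 fold change of FPKM + 1, monoculture over coculture, in EpCAM- cells (x axis) and in EpCAM+ cells (y axis) for the genes called in EpCAM- cells, with the dashed line of equal change. Red points are the 307 called higher and blue points the 236 called lower in EpCAM-, and most red points lie near or under 0 on the y axis while interferon genes such as Irf7 and Isg15 lie below 0 on both axes.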

How the data were processed

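Total RNA of 8 libraries was sequenced in 150 bp paired-end mode (Illumina HiSeq), per the labels' protocols. The deposited values are FPKM per gene, as the authors computed them, in a file per library. The submitters' processing notes list, with no versions, the tools cutadapt, FastQC, HISAT2, HTSeq, SAMtools and edgeR and the build mm10. How the FPKM were written, on which annotation, and what was done with reads that fit several gene copies is not stated there. Read counts are unknown, so no counting interval is given. FPKM are relative to each library's total, and a change in a few abundant genes can move the others.

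Of the gene names, 23334 matched a single gene of the GENCODE M21 annotation (GRCm38, which is mm10), which gave positions. The test covered the 12012 genes at 1 FPKM in 2 or more of all 8 libraries. Values were fitted as log2(FPKM + 1) with limma 3.58.1 in R 4.3.3, as a mean for each of 4 groups from 8 libraries (eBayes with trend, 4 residual degrees of freedom). The groups were pooled since the smallest p of an exact test with 2 libraries a side is 0.333. P-values are two-sided. Log2 fold changes are of FPKM + 1, monoculture over coculture, and understate the change of low genes.

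The genes described, the 38 lists (775 genes, 772 in the files) and the genes to name were chosen with earlier results of these data known. The rule named the 15 highest and 15 lowest changes among called genes whose higher group had a mean of 5 FPKM and whose groups did not overlap, leaving out pseudogenes and unnamed genes. It added 5 of each for the interaction, 40 key genes and, per list, at most 5 called members. Genes outside the rule that complete a pathway step were taken from the lists after their values were seen: Stat2, Irf9, Ifih1, Ddx58, Lgals3bp, Mx2, Ifit2, Herc6, Inhba and Mmp3. A few genes that the rule takes are not reported here. Lists are described by counts and medians, with no set test. Alternatives were other pseudocounts (0.1, 0.5), filters (none, 5 FPKM), scalings, eBayes settings, limma treat against 2-fold, a fit with a replicate block, a fit to the EpCAM- libraries alone, subtraction of a share of the other fraction's levels, and each library left out. Other tables used Python 3.11.15, pandas 2.3.3 and NumPy 2.4.6, and figures matplotlib 3.10.9.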

Additional observations from a re-analysis of the deposited data

Results flagged for a closer look

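For 10 genes the change from coculture to monoculture differed between EpCAM- and EpCAM+ cells by a test of the difference itself (limma interaction, adjusted p from 1.75e-09 to 7.28e-06). They are the 5 highest and 5 lowest such differences among genes whose highest group mean was 5 FPKM or more, in log2 of FPKM + 1, EpCAM- change minus EpCAM+ change. The 5 highest were Ptx3 (5.44), Bmp4 (5.15), Ptn (4.84), Ly6a (4.78) and Mgp (4.51). All 5 were at 1.95 FPKM or less in every EpCAM+ library, so their difference is nearly that within EpCAM- cells. The 5 lowest were Mmp9 (-4.31), Mcpt8 (-3.70), Usp18 (-3.30), Bst2 (-3.23) and Ccbe1 (-3.14). Usp18 and Bst2 fell in both fractions. Mmp9 went from 0.333 and 0.368 FPKM to 2.38 and 2.56 FPKM in EpCAM+ (1.36, adjusted p = 1.24e-06) and fell by 2.95 log2 in EpCAM-. Mcpt8, a protease gene of basophils, was at 8.69 and 7.43 FPKM in coculture EpCAM- and at 0.201 and 0.22 FPKM in monoculture EpCAM-, and rose by 0.79 log2 in EpCAM+. Ccbe1, a gene of lymphatic vessel development, went from 37 and 38.4 FPKM to 5.4 and 5.68 FPKM in EpCAM- and rose by 0.57 log2 in EpCAM+. With the share of EpCAM- levels subtracted from the EpCAM+ libraries, the 10 differences kept their direction, from 5.84 for Ptx3 to -4.46 for Mmp9.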

How the results depend on the processing

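The genes called in EpCAM- cells, 307 higher and 236 lower at 2-fold, became 488 and 422 with a pseudocount of 0.1, and 196 higher with limma treat, which tests against 2-fold. For the interaction, 680 higher and 292 lower became 1151 and 462 with a pseudocount of 0.1, and 335 and 150 with treat. A smaller pseudocount enlarges the change of low genes, and treat asks for more than 2-fold by construction. With each library left out in turn, EpCAM- calls at 2-fold ranged from 302 to 316 higher and from 234 to 248 lower, and those of the interaction from 673 to 709 and from 285 to 292. Over all alternatives, 161 counts stayed within 1.5 times the reported count and 7 did not. Of the values of named genes, 3399 kept their direction and their side of the threshold (an adjusted p of 0.05 whatever the fold, or the 2-fold call for treat). A further 23 no longer passed, 8 newly passed, 1 that had not passed changed sign (Prrx1), and 0 reversed. The change of Epcam, well under 2-fold, no longer passed an adjusted p of 0.05 without monoculture EpCAM- replicate 1 (adjusted p = 0.0522), without coculture EpCAM- replicate 2 (0.0525), with quantile normalization (0.0519) and with the EpCAM+ share subtracted. Those of Ccl2 and Col1a2, also well under 2-fold, newly passed it, Ccl2 without monoculture EpCAM+ replicate 1 (0.00366) or replicate 2 (0.0036) and Col1a2 likewise (0.0122 for each). Of the medians of lists, 681 moved by no more than the median standard error of the list's genes and 45 did not. With a pseudocount of 0.1 the medians became -3.78 for interferon response, -3.39 for interferon gamma and 0.46 for growth factor genes. With a filter of 5 FPKM they became 0.30 for matrix proteases, 0.10 for chemokines and cytokines and -0.12 for breast cancer stem cell markers. With quantile normalization those of crosslinking enzymes and oxidative phosphorylation were 0.0674 and -0.0012, and the latter was 0.015 without monoculture EpCAM- replicate 1. The hypoxia and glycolysis median was -0.0613 without monoculture EpCAM- replicate 2. The adipogenic median was 0.43 without coculture EpCAM- replicate 2. No effect shared by replicate number was seen: deviations of EpCAM- libraries with the same number correlated at r = 0.0023, and over the 6 pairs of groups r lay between -0.0726 and 0.0406. These values cannot tell whether libraries with the same number were paired in the experiment. With the replicate number as a block, 307 genes were called higher and 236 lower, and 680 and 292 in the interaction. Without read counts, the precision of low values is not known, and with 2 libraries a group only the spread between these libraries was measured.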

Other observations

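Several abundant genes outside the lists were called in EpCAM- cells, and they are named here after their values were seen. Gas6, the ligand of the AXL family of receptors, was at 34.2 and 35 FPKM in coculture and 236 and 226 FPKM in monoculture (log2 fold change 2.70, limma adjusted p = 1.71e-08). Wisp2, a matricellular protein gene also called Ccn5, was at 82.1 and 80.4 FPKM in coculture and 325 and 313 FPKM in monoculture (1.96). Ifitm3, an interferon-induced membrane protein gene, was at 581 and 592 FPKM in coculture and 238 and 234 FPKM in monoculture (-1.31). Lrrc32, which encodes the latent TGF-beta docking protein GARP, was at 282 and 279.9 FPKM in coculture and 138 and 139 FPKM in monoculture (-1.02). Of the 735 described genes at 100 FPKM or more in the higher group, 22 were called higher and 8 lower, 4.08% in all, beside 6.47% of the 2643 genes at 1 to 5 FPKM.

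For genes of at least 5 FPKM, the median log2 fold change of a chromosome lay between -0.0538 (chromosome 7) and 0.036 (chromosome 19). The share of such genes called higher ran from 0.837% on chromosome X to 5.07% on chromosome 13, and the share called lower from 0.338% on chromosome 13 to 4.18% on chromosome X. These shares were not tested against each other. The 2 libraries of a group disagreed by more than 1 log2 for 22 described genes in monoculture and 18 in coculture. Cebpb, which encodes a factor of adipocyte and inflammatory gene control, was at 26.9 and 0.653 FPKM in the coculture EpCAM- libraries and at 37.6 and 35.5 FPKM in monoculture, and its change was not called (2.47, adjusted p = 0.162). Its coculture EpCAM+ libraries also disagreed, at 1.79 and 31.6 FPKM. Dag1, dystroglycan, was at 8.66 and 36.7 FPKM in coculture and 53 and 53.7 FPKM in monoculture, and was called higher (1.51, adjusted p = 0.0318). Its change was 0.53 without coculture EpCAM- replicate 1 and 2.49 without coculture EpCAM- replicate 2, and it was not called without monoculture EpCAM- replicate 1 (adjusted p = 0.107) or replicate 2 (0.108).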
